A study of Mus musculus with 2 samples.

Results

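Akr1b8, AA467197, Ms4a4d and Nts are 4 little-studied genes of the 18309 genes listed in a pair of single-cell libraries of sorted mouse endothelial cells (ECs), and all 4 are listed in both. They were chosen by name because an earlier reading of these same libraries placed them higher in tumor endothelial cells (TECs) than in normal endothelial cells (NECs). That difference is therefore described here and not tested, and the gain from NECs to TECs is no independent result. What the choice did not use is the level of the genes in the cancer-like cells of the tumor library, how they divide among the TECs, and what lies beside them in the genome. The ratio of TECs over cancer-like cells does contain the TEC level, for which they were chosen.

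The TEC library came from pooled mammary tumors grown in mice from orthotopically placed E0771 cells, a mouse mammary carcinoma line. The labels give no strain, age or genotype for those mice. The NEC library came from pooled normal mammary glands of C57BL/6 mice labelled as 6 to 8 weeks old, although its cell type and tissue fields carry the tumor names. Both suspensions were sorted for CD45-/CD31+ cells, so the surface protein of Pecam1 was part of the gate, and no treatment is named for either library. Each group is 1 library, which leaves no replicate: every interval below is a 95% interval for counting error alone, and no p-value can be given.

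Cells with 200 or more genes and under 10% mitochondrial UMIs (unique molecular identifiers, each standing for 1 captured transcript) were kept unless Epcam, Ptprc, Cspg4 or Myh11 (genes of epithelial, blood, mural and smooth muscle cells) was detected. A cell was called endothelial where its Cdh5 plus Pecam1 UMIs numbered 1 or more and exceeded those of Rhox5, Hmga2 and Krt8, and cancer-like in the tumor library where the latter sum was higher. This gave 261 TECs with a median of 16989 UMIs, 183 cancer-like cells with a median of 51995 and 4912 NECs with a median of 2984. Of 10 endothelial genes that the rule did not use, 2 or more were found in 260 of 261 TECs, in 4892 of 4912 NECs and in 119 of 183 cancer-like cells, where their summed level was 109 CPM (UMIs per 1000000 UMIs of the group) against 7184 in TECs and 9820 in NECs. The tables shared 3 barcodes, none of them between TECs and NECs.

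The 4 genes belong to unrelated families. Akr1b8 encodes an aldo-keto reductase, an NADPH-dependent enzyme that turns reactive aldehydes into alcohols, and its family neighbors include aldose reductase (Akr1b3). AA467197 encodes a small mitochondrial protein related to NDUFA4, a subunit of cytochrome c oxidase, and its gene also carries a microRNA hairpin. Ms4a4d encodes a four-pass membrane protein of the MS4A family, whose best known member is the B-cell antigen CD20 (Ms4a1). Nts encodes the precursor of neurotensin, a secreted peptide of gut and brain that acts through the receptors Ntsr1 and Ntsr2 and binds sortilin (Sort1), and it is known as a transcript of lymphatic endothelium.

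In the GENCODE annotation of GRCm38, the build to which mm10 corresponds, Akr1b8 lies at chr6:34354119-34368463 on the plus strand and AA467197 at chr2:122636986-122641191 on the plus strand. Ms4a4d lies at chr19:11536801-11558467 on the plus strand and Nts at chr10:102481756-102490486 on the minus strand. The hairpin of Mir147 (chr2:122640803-122640881, plus strand) sits in an untranslated exon of AA467197, so these counts cannot tell the messenger from the precursor of the microRNA. Of the 31-base words in the last 500 bases of the annotated transcripts, 12.8% of those of Akr1b8 also occur in another gene, most often in Akr1b10 (8.3%), whereas no word of Ms4a4d or Nts does. For AA467197 the shared words (4.48%) are those of Mir147. How reads that fit both Akr1b8 and Akr1b10 entered or left the counts was not tested.

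The stretches upstream of the RefSeq start of 3 of the genes that lie outside annotated exons are printed below, 5′ to 3′ on the strand of the gene, from RefSeq (GRCm38.p6). For AA467197 the RefSeq start (122637887) lies downstream of the GENCODE start, so its stretch falls inside the GENCODE gene, between annotated exons. They are shown because AA467197 and Nts hold a searched motif and because Ms4a4d, which went with interferon genes from cell to cell, holds none. Capitals mark an AP-1 site (TGANTCA) or matches to the core of a hypoxia response element (ACGTG), of which AA467197 holds an overlapping pair, one on each strand. The AA467197 stretch is chr2:122637755-122637849, the Ms4a4d stretch chr19:11536594-11536793 and the Nts stretch chr10:102490487-102490668 (minus strand).
AA467197: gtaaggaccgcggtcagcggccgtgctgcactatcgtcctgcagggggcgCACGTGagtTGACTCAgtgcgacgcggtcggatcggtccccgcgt
Ms4a4d: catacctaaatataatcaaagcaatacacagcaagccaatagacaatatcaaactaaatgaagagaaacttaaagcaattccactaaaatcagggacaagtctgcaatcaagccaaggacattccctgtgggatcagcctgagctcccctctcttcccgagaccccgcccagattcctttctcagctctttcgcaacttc
Nts: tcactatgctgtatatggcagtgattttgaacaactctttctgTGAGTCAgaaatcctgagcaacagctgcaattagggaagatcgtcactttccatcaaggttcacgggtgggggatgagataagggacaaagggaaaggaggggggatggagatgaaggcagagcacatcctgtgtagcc

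The AP-1 letters were found in 6.75% and the hypoxia core in 16.6% of the 250-base upstream windows of 32851 promoters, on either strand. The interferon-stimulated response element core (in 2.98% of promoters), the gamma-activated site (TTCNNNGAA, 7.02%), the antioxidant response element core (TGACNNNGC, 10.2%), the cyclic AMP response element (TGACGTCA, 1.55%) and an NF-kB site (GGGNNTTCC, 4.98%) were in none of the 4 windows. The absence of these letters from so short a window says nothing about the factors that bind them.

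Each of the 4 genes was low in NECs, and they differed in the cancer-like cells. Akr1b8 was present at 141 CPM in TECs (130 to 152, 655 UMIs), 123 CPM in cancer-like cells (116 to 130, 1270 UMIs) and 1.56 CPM in NECs (1.03 to 2.27, 27 UMIs). AA467197 stood at 781 CPM in TECs (755 to 806), 78.4 in cancer-like cells (73.1 to 84) and 7.17 in NECs (5.97 to 8.55). By these counts, the level of the reductase in cancer-like cells was close to that in TECs, while that of the NDUFA4 relative was higher in TECs. Which cells made the transcripts was not tested.

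Ms4a4d stood at 100.3 CPM in TECs (91.4 to 110) against 1.94 in cancer-like cells (1.18 to 2.99) and 0.926 in NECs (0.529 to 1.5). Its 20 UMIs in cancer-like cells came from 9 cells, and 1 of these held 45% of them. Nts stood at 204 CPM in TECs (191 to 217), 0.291 in cancer-like cells (3 UMIs) and 8.68 in NECs (7.35 to 10.2).

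**Figure D1:**
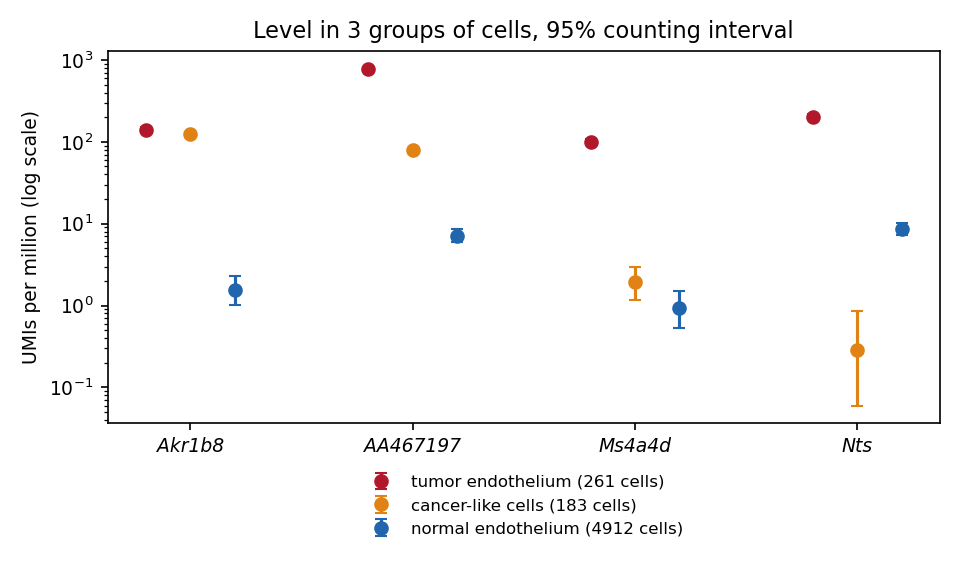
Level of the 4 genes in CPM (log scale) in 261 tumor endothelial cells, 183 cancer-like cells and 4912 normal endothelial cells, with points for the summed level of each group and bars for the 95% counting interval. The tumor endothelial point is the highest for each gene, and the cancer-like point comes close to it for Akr1b8 only.

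On the log2 scale, the TEC level exceeded the NEC level by 6.5 (5.94 to 7.11) for Akr1b8, 6.77 for AA467197, 6.76 for Ms4a4d and 4.55 for Nts. Among 13055 genes with 10 or more UMIs, these values rank 11, 8, 9 and 69, and 11.2% of those genes were 2-fold or more higher in TECs while 24.1% were 2-fold or more lower. All 4 of the genes exceed 2-fold because they were chosen to. The median of all genes was -0.22.

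Against the cancer-like cells of the same library, 3 of the 4 genes were 2-fold or more higher in TECs, beside 22.5% of the 12156 genes counted. The TEC level, for which the genes were chosen, enters this ratio, so the count is not independent of the choice. The log2 ratio was 3.31 (3.21 to 3.43) for AA467197, 5.69 (5.05 to 6.42) for Ms4a4d and 9.45 (7.9 to 11.7) for Nts. Akr1b8 differed by 0.2 (0.06 to 0.33), so the cancer-like level was 87.2% of that in TECs. For comparison, Kdr, the main VEGF receptor of ECs, stood at 417 CPM in TECs and 2.13 in cancer-like cells.

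Transcripts released by lysed cells give a low count in cells that do not make them. Rhox5, the most abundant of the 3 cancer genes of the rule, stood at 736 CPM in cancer-like cells and at 4.09 in TECs, although the rule itself keeps this value low. Among the 242 TECs without any UMI of Rhox5, Hmga2 or Krt8, the log2 ratio of Akr1b8 to the cancer-like cells was 0.19, against 0.2 in all TECs. Only 19 TECs were left out, and the rule keeps these 3 genes low in TECs (29 UMIs). The ratio could therefore hardly change, and it does not bear on released transcripts. The part of released transcripts in the TEC level of Akr1b8 and in the cancer-like levels of AA467197, Ms4a4d and Nts was not tested.

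To set the shares of cells side by side, 1900 UMIs were drawn at random from each cell, a depth reached by 239 TECs, 169 cancer-like cells and 3824 NECs, while 22, 14 and 1088 shallower cells were left out. AA467197 was then found in 62.8% of TECs (56.3 to 68.9), 11.2% of cancer-like cells and 1.2% of NECs. Akr1b8 was found in 16.3% of TECs (11.9 to 21.6), 14.8% of cancer-like cells (9.81 to 21.1) and 0.288% of NECs, so the intervals of the first pair overlapped. Kdr, which cancer cells should lack, was found at this depth in 41% of TECs and in 0 of the 169 cancer-like cells. The endothelial gene Egfl7 was found in 97.9% of TECs and in 11 of those 169 cells (6.51%, 3.29 to 11.3). For Flt1 the shares were 63.6% and 0.592%.

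Ms4a4d was found in 14.2% of TECs (10.1 to 19.3) and 0.131% of NECs, and Nts in 7.53% of TECs (4.52 to 11.6) and 0.471% of NECs. Neither had a UMI in the 169 thinned cancer-like cells, which at this depth allows a share of up to 1.78% by 3 counts of the total and of 2.16% by the Clopper-Pearson limit. Without thinning, 9 of the 183 cancer-like cells held Ms4a4d (4.92%) and 3 held Nts (1.64%). Without thinning, 59.8% of TECs held Akr1b8, 85.4% held AA467197, 47.1% held Ms4a4d and 9.2% held Nts. The unthinned shares followed depth: the TECs with Akr1b8 had a median of 23032 UMIs and those without it 7046, whereas the TECs with Nts (17344) and without it (16911) were alike in depth.

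**Figure D2:**
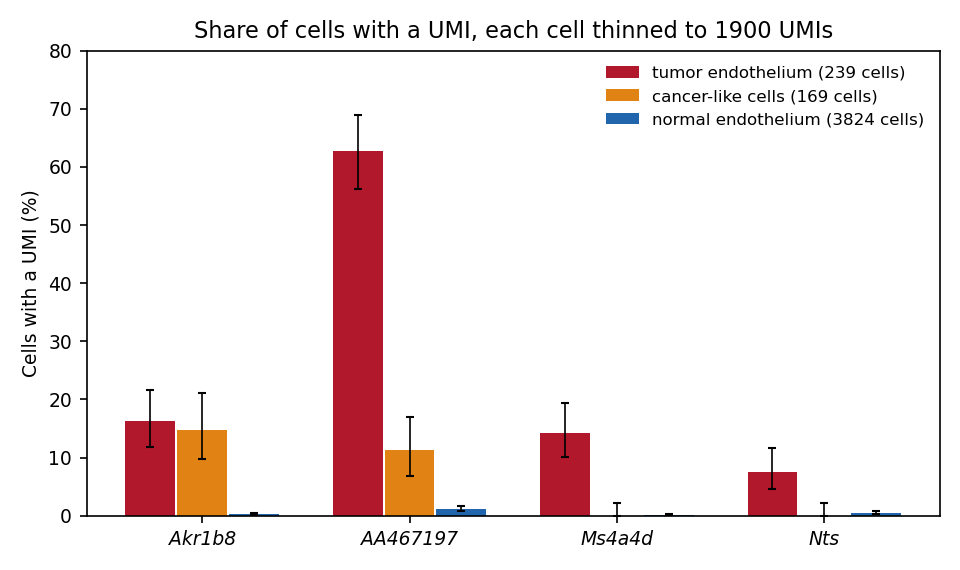
Percentage of cells with a UMI of each gene after every cell was thinned to 1900 UMIs, in 239 tumor endothelial, 169 cancer-like and 3824 normal endothelial cells, with bars for the share and lines for the 95% Clopper-Pearson interval. AA467197 reaches 62.8% of tumor endothelial cells, and the tumor endothelial and cancer-like bars of Akr1b8 overlap within their intervals.

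The genes were spread over the TECs in unlike ways. AA467197 was the broad one: its 3627 UMIs came from 223 cells, and the 5 cells with the most held 12.5% of them. The 5 cells with the most held 14% of the Akr1b8 UMIs and 13.5% of the Ms4a4d UMIs. The spread of these 3 genes over many cells contrasts with that of Nts, whose 946 UMIs came from 24 cells with 76.5% in 5 of them.

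The counts of Nts in its 5 richest TECs were 286, 158, 105, 101 and 74 UMIs, out of 7046, 24777, 22543, 33580 and 10653 UMIs in the cell. The cell with 286 UMIs thus devoted 40590 CPM to this 1 peptide precursor. The next 7 cells held 55, 37, 33, 21, 15, 12 and 10 UMIs, and the other 12 held 8 or fewer, so that 12 of the 261 TECs carried 95.9% of the Nts transcripts. A level averaged over TECs therefore describes few cells for this gene.

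**Figure D3:**
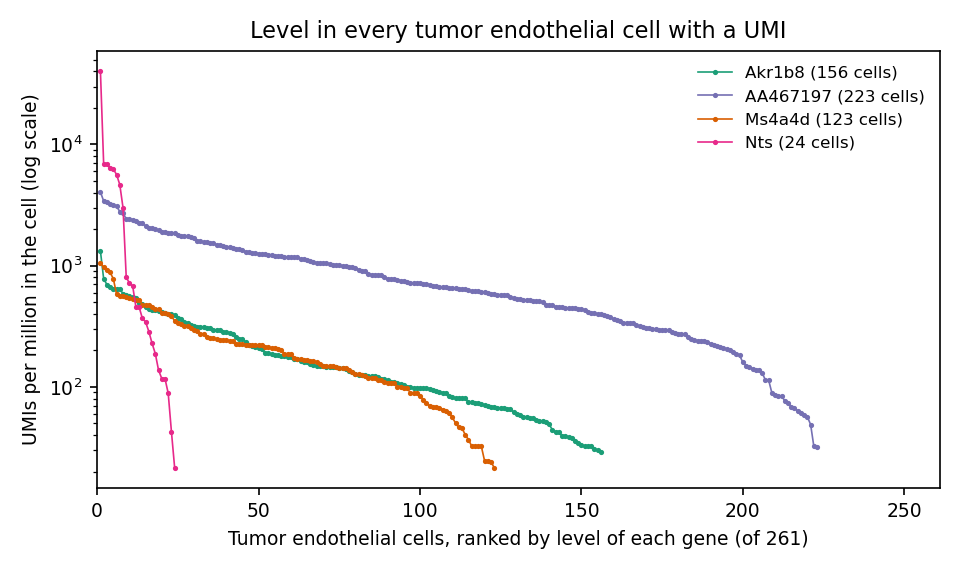
Level of each gene in every tumor endothelial cell that held a UMI of it, in CPM on a log scale, with the cells ranked from the highest level along the horizontal axis (of 261 cells). The curve of AA467197 runs over 223 cells, those of Akr1b8 and Ms4a4d over 156 and 123, and that of Nts drops steeply within 24 cells.

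The TECs were then divided by the summed level of 3 gene lists: tip genes (10 genes such as Esm1, Apln and Angpt2, made by the leading cells of a growing sprout), interferon genes (18, such as Isg15, Ifit3 and Cxcl10) and mitotic genes (17, such as Top2a and Mki67). In each division the highest 60 of 239 TECs with 1900 or more UMIs were set against the other 179. Between TECs and NECs, 6 of the 10 tip genes, 13 of the 18 interferon genes and 16 of the 17 mitotic genes were 2-fold or more higher in TECs and 0 were lower, beside 11.2% and 24.1% of all genes. These are divisions of a range and not cell types: between 11 and 37 cells lay within 20% of the dividing score. Tip-high and interferon-high cells had 14 cells in common, tip-high and mitotic-high cells 8, and interferon-high and mitotic-high cells 6.

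Akr1b8 was highest in the tip-high cells, at 248 CPM (219 to 281) against 110 (99.9 to 122) in the others, a log2 ratio of 1.17 (0.94 to 1.4). AA467197 was also higher there, at 1298 CPM against 629, a log2 ratio of 1.04 (0.95 to 1.14). For Ms4a4d the levels were 87.3 and 104 CPM, with an interval of the log2 ratio that includes 0 (-0.6 to 0.08). With the cells divided at the median tip score instead, its ratio had the other sign, at 0.51 (0.24 to 0.78). Nts went the other way, at 17.3 CPM in tip-high cells and 260 CPM in the others, a log2 ratio of -3.91 (-4.67 to -3.24), with 3 of 60 and 21 of 179 cells holding a UMI. This ratio rests on few cells, since 1 cell held 286 of the 928 Nts UMIs in the others. Without the richest cell of each group it was -4.2. Over all genes, 6.47% were 2-fold or more higher and 6.24% 2-fold or more lower in tip-high cells.

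In interferon-high cells Ms4a4d stood at 195 CPM (170 to 223) against 69.9 (61.4 to 79.2), a log2 ratio of 1.48 (1.21 to 1.75), and 80% against 40.8% of the cells held a UMI. Of all genes, 4.73% were 2-fold or more higher in these cells, and 9.16% were 2-fold or more lower. AA467197 was higher by 0.92 (0.82 to 1.02) and was found in 59 of the 60 interferon-high cells. Akr1b8 was lower, at 95 CPM against 157, a log2 ratio of -0.72 (-1.03 to -0.42).

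Nts stood at 260 CPM in interferon-high cells and 187 CPM in the others, a log2 ratio of 0.48. The ratio was 0.22 without the richest cell of each group, 2.36 with the cells divided at the median score and 2.004 in cells of 10000 or more UMIs. The share of cells with a UMI was 10% in the one and 10.1% in the other. The ratio in this division therefore rests on few cells, 6 in the one group and 18 in the other.

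In mitotic-high cells Nts was again low, at 22.2 CPM against 292, a log2 ratio of -3.72 (-4.26 to -3.22), with 5 of 60 and 19 of 179 cells positive. The shares of positive cells were 8.33% and 10.6%, so this ratio too rests on few Nts-rich cells, 1 of which held 286 of the 913 UMIs in the others. AA467197 (-0.49) and Ms4a4d (-0.48) were lower by less than 2-fold, and the interval of Akr1b8 (0.19, -0.05 to 0.43) includes 0. Over all genes, 6.67% were 2-fold or more higher and 7.78% 2-fold or more lower in mitotic-high cells. The mitotic-high cells were also the deeper ones, with a median of 26650 UMIs against 16911.

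**Figure D4:**
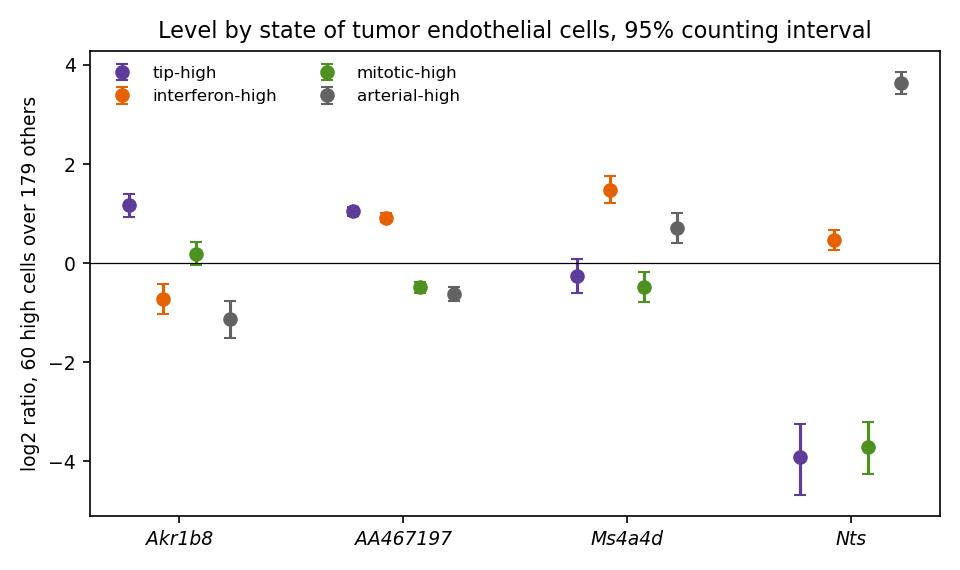
Log2 ratio of the level in the 60 highest-scoring tumor endothelial cells over the other 179, for tip, interferon, mitotic and arterial gene lists, with points for the ratio and bars for the 95% counting interval. Akr1b8 and AA467197 lie above 0 in tip-high cells, Ms4a4d lies highest in interferon-high cells, and Nts lies at -3.91 in tip-high and at 3.64 in arterial-high cells.

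Detection in the same cell as single genes of the lists was counted after thinning to 1900 UMIs. Ms4a4d was found in 18.4% of the 179 TECs with Isg15 (13 to 24.9) and in 1.67% of the 60 without it (0.042 to 8.94). It was found in 26.3% of the 76 TECs with Ifit3 and 8.59% of the 163 without. The share was 16.4% with Cxcl10 and 13.4% without, with intervals that overlap, whereas at 5000 UMIs it was 50.6% (39 to 62.2) and 22.4% (15.6 to 30.4).

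AA467197 was found in 73.8% of the 103 TECs with Angpt2, an antagonist of the Tie2 receptor made by sprouting vessels (64.2 to 82), and in 54.4% of the 136 without it (45.7 to 63). At 5000 UMIs these shares were 86.3% and 80%, with intervals that overlap. Akr1b8 was found in 22.5% of the 89 TECs with Apln, the ligand of the apelin receptor (14.3 to 32.6), and in 12.7% of the 150 without it (7.8 to 19.1), and these intervals overlap. Nts was in 0 of the 89 cells with Apln, which at this depth allows a share of up to 3.37% by 3 counts and of 4.06% by the Clopper-Pearson limit, and in 12% of the 150 without it. Without thinning, it was in 7 of the 170 cells with Apln (4.12%) and in 18.7% of the 91 without. Neither Top2a, found in 16 TECs, nor Mki67, found in 19, gave shares with separate intervals for any of the 4 genes.

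Detection with any gene of a list was less informative, since 238 of the 239 thinned TECs held an interferon gene and 212 a tip gene. Beside the 70 TECs with a mitotic gene, the shares with and without one were 17.1% and 16% for Akr1b8, 58.6% and 64.5% for AA467197, 17.1% and 13% for Ms4a4d and 4.29% and 8.88% for Nts. The intervals overlapped for each gene.

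The 4 genes did not mark 1 set of cells. After thinning, 68 of 239 TECs held none of them, 109 held 1, 54 held 2, 8 held 3 and 0 held all 4. Across these 239 cells, which share 1 library and differ in depth, Pearson's r on the log scale was 0.32 between Akr1b8 and AA467197, 0.22 between AA467197 and Ms4a4d and -0.18 between Akr1b8 and Ms4a4d. In the 179 cells of 10000 or more UMIs the same values were 0.26, 0.2 and -0.3. Without thinning, each of the 24 cells with Nts also held AA467197, beside 85.4% of all TECs, and 12 held Ms4a4d, beside 47.1%. After thinning, 11 of the 18 cells with Nts held AA467197.

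The genes that varied most like each one, among 8865 genes found in 10% or more of the TECs, differed from gene to gene. For Akr1b8 they were Pgk1 (r = 0.43), an enzyme of glycolysis, Eif4ebp1 (0.41), a repressor of cap-dependent translation, the cytokine Mif (0.38), Anxa5 (0.37) and Lgals1 (0.35). For AA467197 they were Trp53i11 (0.5), the glycolytic aldolase Aldoa (0.43), vimentin (Vim, 0.42), Cd63 (0.42) and Ywhaq (0.41). In the deeper cells the leading genes stood at 0.5 for Pgk1 and 0.57 for Trp53i11.

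For Ms4a4d they included the class I histocompatibility genes H2-K1 and H2-D1 (both 0.49), the interferon-induced Ifit3 (0.48) and Ly6e (0.45). Of these, Ifit3 is also in the interferon list. For Nts they were the Notch ligand Jag1 (0.41), Zbtb7b (0.4), Hsd17b11 (0.38), Tspan8 (0.37) and Sox17 (0.37), a transcription factor of arterial ECs. In the deeper cells r with Jag1 was 0.13 and r with Sox17 0.35, so the likeness to Jag1 was weaker in the deeper cells and that to Sox17 was close to its value in all cells. The deeper cells leave out the TEC richest in Nts, which had 7046 UMIs, 4 of Jag1 and 19 of Sox17. Its part in these values was not tested.

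The vessel type of the cells with Nts was followed further, since Nts is known from lymphatic endothelium. None of the 24 TECs with Nts held a UMI of Prox1, the factor that sets lymphatic identity, and Prox1, Ccl21a and Reln were at 0 in all 261 TECs. The summed level of the 7 lymphatic genes was 68.2 CPM in TECs and 403 in NECs, and the TEC value came mainly from Flt4 and Lyve1. Of the TECs, 8 held 2 or more lymphatic genes, 2 of them with Nts. By the vessel list with the most genes found, 0 TECs and 12 NECs were lymphatic.

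By contrast, 12 of the 24 TECs with Nts (50%) held 2 or more of the 6 arterial genes Gja5, Gja4, Bmx, Sema3g, Efnb2 and Hey1, against 23.6% of the 237 without Nts, and 74% of the Nts UMIs lay in cells with 2 or more. By the vessel list with the most genes found, however, 4 cells with Nts were called arterial (13.2% of the Nts UMIs) and 15 capillary (73.3%). Of the 24 cells, 18 held 2 or more venous genes and 24 held 2 or more capillary genes. Among the 237 without Nts these shares were 61.2% and 91.6%. Of the 12 cells with 10 or more Nts UMIs, 6 held 2 or more arterial genes, among them the 4 richest, while the cells with 74, 55, 37, 33 and 21 Nts UMIs held 0 or 1. Hey1, a Notch target of arterial cells, was found in 12 of the 24 cells and in 17.3% of the TECs without Nts, and Sox17 in 21 of the 24 and in 56.5%, but both genes were among those that varied most like Nts over the same cells, so these shares are no separate evidence. Hey1 is also 1 of the 6 genes of the arterial list, so the values by that list are not fully separate from this likeness either. Divided by the arterial list in the same way as above, a division added after these values were seen, the 60 arterial-high TECs stood at 770 CPM of Nts against 61.9 in the others. The log2 ratio was 3.64 (3.42 to 3.86), and 3.48 without the richest cell of each group. Over all genes, 6.49% were 2-fold or more higher and 5.39% 2-fold or more lower in these cells.

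The other genes divided differently by this list. Ms4a4d was higher in arterial-high cells by 0.71 (0.41 to 1.01), AA467197 lower (-0.62, -0.76 to -0.49) and Akr1b8 lower, at 73 CPM against 159 (-1.12, -1.51 to -0.76). In the 11 TECs whose arterial genes outnumbered those of any other vessel list, Akr1b8 stood at 9.44 CPM with 2 UMIs, against 161 in the 181 capillary cells and 117 in the 26 venous cells so called. None of the 11 TECs richest in Nts held a UMI of Apln, the tip gene, whereas 7 of the 24 cells with Nts did, all of them among those with 10 or fewer Nts UMIs.

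Nts in NECs was a matter of 1 cell. That cell held 99 of the 150 Nts UMIs, with 11129 UMIs in all and 10 of Prox1, and without it the NEC level was 2.95 CPM. The NEC with the next most Nts, 8 UMIs, held 2 of Prox1. Those 2 cells apart, the remaining 23 NECs with Nts held 5 or fewer UMIs each. With cells of 2 or more lymphatic genes left out of both libraries, the log2 ratio of TECs over NECs was 6.5 for Nts in place of 4.55.

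The few NECs that held the other genes were of several kinds. Of the 124 AA467197 UMIs in NECs, 92.7% were in cells called capillary, which made up 4070 of the 4912 NECs, and none was in the 283 venous cells. Within NECs divided by the tip list, again after these values were seen, AA467197 stood at 12.4 CPM in the 956 highest cells and 5.25 CPM in the other 2868, a log2 ratio of 1.24 (0.68 to 1.8). By the interferon list, Ms4a4d had 8 UMIs in the 956 highest NECs and 7 in the others, a log2 ratio of 1.78 (0.12 to 3.47), and AA467197 differed by 0.14 (-0.52 to 0.75). Some other divisions of NECs differed from those of TECs: Akr1b8 by the tip list stood at -0.11 (-1.72 to 1.27), and Nts by the arterial list at -1.93 (-2.97 to -1.05), with its richest cell among the others. Further ones had the same sign as in TECs, such as Nts by the tip list (-2.23, -3.32 to -1.31) and by the interferon list (3.22, 2.67 to 3.81). Both of these turn on the richest cell, which held 99 Nts UMIs. By the tip list it was among the other cells, which held 138 Nts UMIs in all. By the interferon list it was among the high cells, which held 112. Ratios without it were not computed. The counts behind these values are small.

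Of the 12 NECs with Ms4a4d, 4 held 2 or more pericyte genes, and of the 25 NECs with Akr1b8, 9 did, against 1.55% and 1.45% of the other NECs. In TECs, 2 or more pericyte genes were found in 6.5% of the 123 cells with Ms4a4d and 7.25% of the 138 without. The same held for 8.97% of the 156 TECs with Akr1b8 and 3.81% of the 105 without, and for 18 of the 223 with AA467197 and 0 of the 38 without, and the cells with either gene were also the deeper ones. No TEC held 2 or more fibroblast genes. The summed pericyte level was 43.5 CPM in TECs, 140.6 in NECs and 39.7 in cancer-like cells, with none of the 5 genes at 0. The part of such cells in the NEC values was not tested.

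The genes beside each one in the genome were compared next, in windows of 100000 bases. Around Ms4a4d, which sits in a cluster of its family on chromosome 19, the neighbors Ms4a6b and Ms4a6d were higher in TECs too. Ms4a6b (chr19:11516512-11531256) stood at 56.4 CPM in TECs and 5.03 in NECs, a log2 ratio of 3.49 (3.13 to 3.85), and Ms4a6d (chr19:11586604-11604849) at 303 and 0.231 CPM, a log2 ratio of 10.35 (8.99 to 12.23). Their levels in cancer-like cells were 1.36 and 2.81 CPM. Ms4a6c and Gm8369, which lie on the other side of Ms4a6b, had 3 and 4 UMIs in TECs with intervals that include 0.

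Ms4a genes are best known from macrophages and lymphocytes. Of 9 macrophage genes, Csf1r and Adgre1 were at 0 in the 261 TECs, the summed level was 34.2 CPM in TECs, 26.1 in cancer-like cells and 34.5 in NECs, and 15 TECs held 2 or more. Of the 7 macrophage genes with 10 or more UMIs, 2 (C1qb and Tyrobp) were 2-fold or more higher in TECs and 1 (Lyz2) lower. Over all genes, these shares of TECs over NECs were 11.2% and 24.1%. The median of the 7 was 0.59 on the log2 scale. The CD45- sort and the removal of cells with a Ptprc UMI act to keep macrophage genes low in both groups. Ms4a6d was found in 182 of the 261 TECs. Of the 13 genes of the family list, 4 had 10 or more UMIs over both groups, with a median of 3.85 on the log2 scale. Among these, 3 were 2-fold or more higher in TECs and 0 lower, beside 11.2% and 24.1% of all genes. The third was Ms4a4c with 15 UMIs in TECs and none in NECs (at least 4.22 on the log2 scale). Ms4a4c and Ms4a6d (1407 UMIs in TECs, 4 in NECs) reached 10 UMIs only through the TECs. The filter thus favored genes high in TECs, and the count is no separate result. Ms4a1 had no UMI in TECs.

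Around Akr1b8 on chromosome 6, 0 of the 2 family members measured were 2-fold or more higher in TECs, beside 11.2% of all genes. So small a count does not set them apart from that share. Akr1b10 (chr6:34384218-34396950) stood at 10.1 CPM in TECs and 7.87 in NECs, with an interval of the log2 ratio that includes 0 (-0.15 to 0.85). Akr1b3 (chr6:34302434-34317478) stood at 104 CPM in TECs, 62.8 in NECs and 184 in cancer-like cells, a log2 ratio of 0.73 (0.57 to 0.89) between TECs and NECs. Akr1b7 was not analysed here.

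For AA467197 the neighbors Gatm (0.07) and Bloc1s6 (0.09) had log2 ratios with intervals that include 0, and the zinc transporter Slc30a4 was higher by 1.51. For Nts the neighbor Rassf9 was lower in TECs, at 7.32 CPM against 77.2 (-3.4).

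**Figure D5:**
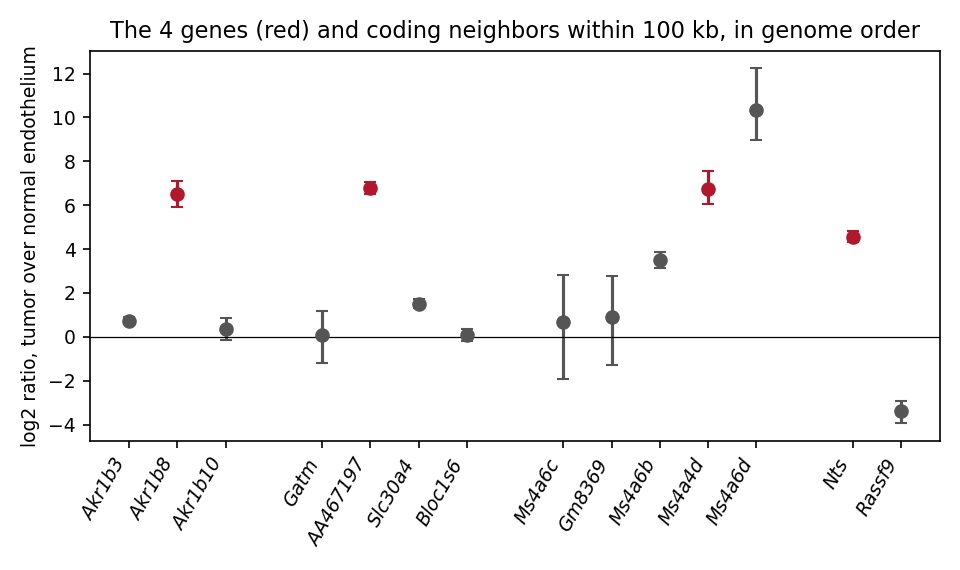
Log2 ratio of tumor over normal endothelium for the 4 genes (red) and their protein-coding neighbors within 100000 bases that are listed in both tables with 10 or more UMIs (gray), in genome order, with bars for the 95% counting interval. The Ms4a cluster holds the highest value, 10.35 for Ms4a6d, whereas Akr1b3 and Akr1b10 beside Akr1b8 lie at 0.73 and 0.36.

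Lists of related genes were read beside the same 11.2% of genes higher and 24.1% lower in TECs. Of 10 targets of NRF2, the factor of the oxidative stress response to which Akr1b8 is often assigned, 0 were 2-fold or more higher in TECs and 1, the quinone reductase Nqo1, was lower (3.23 against 13.1 CPM), with a median of -0.28 beside -0.22 over all genes. Ndufa4, whose product the AA467197 protein resembles, stood at 233 CPM in TECs and 561 in NECs (-1.27), and its relative Ndufa4l2 at 0.646 and 8.97. Of 10 targets of NF-kB, the inflammatory factor, 1 was 2-fold or more higher (the chemokine Ccl2, 249 against 13.4 CPM) and 7 were lower, among them Nfkbia (-1.37) and the adhesion molecule Icam1 (-1.22).

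For Nts, the receptors Ntsr1 and Ntsr2 were not analysed here. Sort1 was found by 1 UMI in TECs and 145 in NECs. Among genes that process prohormones, Cpe, a carboxypeptidase that trims peptide precursors, stood at 16.4 CPM in TECs and 50 in NECs, Furin at 46.3 and 48.4, and Scg5 had no UMI in TECs. Of the 4 genes of this list that were compared, 0 were 2-fold or more higher and 2 were lower.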

How the data were processed

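Cells were captured with the 10x Genomics system and 1 library was made for each group. Per the labels, the authors used Cell Ranger, Seurat and the mm10 build. Versions and the gene annotation are not given in the sources used here. The deposited tables hold UMI counts per gene and cell, 704 barcodes with 18980858 UMIs for the tumor and 9047 barcodes with 40914092 UMIs for the normal gland. Of these, 484 and 6924 barcodes met the gene and mitochondrial thresholds, and 28 and 1724 of them were then set aside because a marker of another cell type was detected. No doublet caller was run.

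The members and the gene lists were chosen with earlier results of these data known. Genes were named where they were 1 of the 4, stood in a list, or were among up to 5 with the highest Pearson's r of 0.3 or more over TECs. A gene that this rule named is not reported here. Neighboring genes, the arterial division and the divisions of NECs were added after values were seen. UMIs were summed over the cells of a group and divided by the total of all UMIs (CPM). Levels carry Poisson intervals, shares Clopper-Pearson intervals and ratios exact conditional binomial intervals, all at 95%. PCR and capture add error that these do not cover. A gene counted as higher at 2-fold with 10 or more UMIs over both groups, and a group without a UMI was set to 3 counts. Thinning used 1 seeded draw. The functions were tested on simulated counts. Python 3.11.15, numpy 2.4.6 and scipy 1.17.1 were used. Of the symbols, 98.8% matched the RefSeq names in either table. Alternatives changed the cell calls, the depth, the scaling and the weight of single cells.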

Additional observations from a re-analysis of the deposited data

Results flagged for a closer look

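Akr1b8 and Ms4a4d had higher levels in cells of the normal library that entered no comparison than in NECs. In the 1233 cells that were removed for an Epcam UMI, Akr1b8 stood at 18.9 CPM (16.8 to 21.2) and was found in 218 cells, of which 215 held 2 or more epithelial genes, as did 761 of the 1015 cells without it. In the 288 kept cells that were not called endothelial, it stood at 17.6 CPM (8.78 to 31.5, 11 UMIs). Ms4a4d stood at 28.8 CPM in the same 288 cells (17.1 to 45.5, 18 UMIs in 13 cells), of which 10 cells held 2 or more fibroblast genes and 6 held 2 or more pericyte genes, against 19 and 43 of the 275 cells without it. AA467197 and Nts were not above their NEC level in either set of cells.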

How the results depend on the processing

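No paired analysis was possible because each group is 1 library. No ratio of 2-fold or more changed sign under an alternative. Among smaller ones, that of Ms4a4d by the tip list and that of Akr1b8 by the mitotic list, whose intervals included 0, took the other sign in the values below. For TECs over NECs, 40 of 48 values moved by less than their counting interval, for TECs over cancer-like cells 42 of 48, for shares 39 of 52, for the divisions 39 of 60 and for co-detection 63 of 84. The causes of the values below were not tested. The lowest log2 ratio of TECs over NECs was 3.55, for Nts with cells under 5% mitochondrial UMIs. That of Nts was 5.86 without the deepest 5% of cells, 6.5 without cells of 2 or more lymphatic genes, 5.9 as a mean of per-cell CPM, 5.59 without its richest cell and 5.93 after thinning to 1900 UMIs. Without the deepest 5% of cells, Akr1b8 stood at 7.2 and AA467197 at 7.08 over NECs, and Akr1b8 at 0.34 over cancer-like cells. Against cancer-like cells, thinning gave 3.64 for AA467197 and, with no UMI left in those cells, at least 3.37 for Ms4a4d and at least 5.4 for Nts, and Ms4a4d stood at 4.4 as a mean of per-cell CPM and 6.49 without its richest cell. TMM-scaled totals shifted all ratios over NECs by 0.11 and those over cancer-like cells by -0.02.

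The share of TECs with a UMI was 16.3%, 62.8% and 14.2% for Akr1b8, AA467197 and Ms4a4d after thinning to 1900 UMIs, and 11.5%, 53% and 7.51% at 1000 UMIs, where Nts was at 5.93%. As a mean over all thinnings it was 19.1%, 60.02% and 17.1%, and with 2 or more UMIs required 42.1%, 77.8% and 33.7%. With the cells divided at the median score, the tip ratios were 0.61 for Akr1b8, 1.19 for AA467197 and 0.51 for Ms4a4d, the interferon ratios 0.55 for AA467197, 2.22 for Ms4a4d and 2.36 for Nts, and the mitotic ratio of Nts -2.86. With 2 or more list genes after thinning, the tip ratios were 0.25 for Ms4a4d and -1.1 for Nts, and the interferon ratio was 0.29 for AA467197. With no UMI in the other cells, the interferon ratio in this setting was at least 1.05 for Ms4a4d and at least 2.08 for Nts. The mitotic ratios were -0.16 for Akr1b8, -0.069 for Ms4a4d and -6.59 for Nts. In cells of 10000 or more UMIs, the tip ratios were 1.16 for AA467197 and -3.1 for Nts, the interferon ratio of Nts was 2.004 and its mitotic ratio -2.96. Without the richest cell of each group, the interferon ratio of Nts was 0.22 and its mitotic ratio -4.61.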
